A study of Homo sapiens with 6 samples.

Results

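Cytochrome P450 enzymes were followed at the level of their messenger RNA in Huh-7, a line of human hepatocellular carcinoma cells. Members were all genes of the authors' count table whose symbol starts with CYP and a digit, without CYP51A1 of sterol synthesis, together with POR. This gave 56 genes, 55 CYP genes and POR, of the 20332 genes in the table. Poly(A) RNA of 3 samples of Huh-7 cells with stable RAC3 overexpression, made with a lentivirus, was compared with 3 samples of the corresponding negative control cells. RAC3 is a GTPase that acts as a molecular switch. The labels describe the controls as wild type, and the sources used here state neither the promoter of the RAC3 construct nor whether each line was 1 clone. The comparison is therefore of a pair of cell lines, and RAC3 and any other difference between the lines cannot be told apart. The samples were called independent, with no word on separate cultures, so the p-values measure the spread between these samples, which may be technical.

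P450 enzymes are haem proteins that insert an atom of oxygen into their substrates. Most of them sit in the endoplasmic reticulum and receive electrons from NADPH through POR, the cytochrome P450 reductase, and a few mitochondrial members use adrenodoxin. Families 1, 2 and 3 hold the main drug and xenobiotic enzymes of hepatocytes, family 4 oxidizes fatty acids and eicosanoids, and the other families act on bile acids, steroids, retinoids and vitamin D. Liver expresses many of these genes at a high level, and cultured hepatoma lines are known to have lost much of this expression.

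Total counts lay between 13855762 and 18199888 per sample, and 3 counts, the limit that a count of 0 allows for counting error, corresponded to between 0.167 and 0.215 CPM, the count scaled to the size of its library. RAC3 was measured at 35.6, 31.4 and 32.8 CPM in the controls and at 233, 240 and 225 CPM in the RAC3 samples, scaled with the trimmed mean of M values (TMM), as all CPM values here. The genotype labels of RAC3 samples 2 and 3 name RAC4 and RAC5, while their titles and RAC3 levels are those of RAC3 overexpression. All 14 hepatocyte markers examined were detected. Of the markers of other cells, 5 of 7 stellate cell and fibroblast genes, 1 of 6 endothelial genes and 3 of 6 leukocyte genes were detected, and their summed levels lay at 233 to 249, 2.66 to 3.15 and 43.3 to 50.7 CPM in the controls and at 273 to 285, 2.77 to 3.76 and 40.9 to 42.1 CPM in the RAC3 samples. Their part in the P450 values was not tested.

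A gene was called detected when it reached 1 CPM in all 3 samples of a group. By this measure 16 of the 56 members (28.6%) were detected, against 60.6% of all genes in the table. Another 29 members had traces of counts below it, and 11 had 0 counts in every sample. The detected genes were POR, CYP1A1, CYP2B6, CYP2C18, CYP2J2, CYP2R1, CYP2S1, CYP2U1, CYP3A5, CYP4F3, CYP4F12, CYP4V2, CYP20A1, CYP26B1, CYP27A1 and CYP27B1. Of these, 15 are P450 genes.

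Detection was uneven over the roles. Among the 22 drug and xenobiotic genes of families 1, 2 and 3, 7 were detected, 12 had traces and 3 had no count. Among the 12 genes of family 4, 3 were detected, 4 had traces and 5 had no count. Of the 6 bile acid and cholesterol side-chain genes, 1 was detected, and of the 4 retinoid genes, 1 as well. Of the 3 vitamin D genes 2 were detected, whereas none of the 6 steroid hormone genes was. CYP20A1, a P450 without an assigned substrate, was detected in every sample.

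Many P450 genes stand in tandem arrays of close relatives, and the arrays differed in how many of their genes were detected. In the array on chromosome 19 from 40843538 to 41207539 (GENCODE 29, GRCh38), CYP2B6 and CYP2S1 were detected and CYP2A6, CYP2A7, CYP2A13 and CYP2F1 were not. In the array of family 4 on the same chromosome, from 15508493 to 15934867, CYP4F3 and CYP4F12 were the 2 detected genes of 6. The CYP3A genes on chromosome 7 (99648194 to 99866102) had 1 detected member of 5, CYP3A5, and the CYP2C genes on chromosome 10 (94683621 to 95069497) had 1 of 4, CYP2C18. None of the 5 family 4 genes on chromosome 1 (46757838 to 47149741) was detected, nor was either of the 2 CYP26 genes on chromosome 10 (93060808 to 93077890). CYP1A1 and CYP1A2 lie on chromosome 15 and are separated by 23234 bases, and only CYP1A1 was detected.

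The promoters of CYP1A1, of its silent neighbour CYP1A2 and of CYP20A1 are shown because CYP1A1 and CYP20A1 had the smallest adjusted p of all members and because CYP1A1 and CYP1A2 are classical targets of the aryl hydrocarbon receptor (AHR). Each window holds 250 bases before the transcription start and 50 after it, from RefSeq on GRCh38.p14, written 5′ to 3′ along the gene. CYP20A1 has a second, downstream window that is not shown. Capitals mark the core of the AHR response element, GCGTG, and the TATA box, TATAAA, on either strand (CACGC and TTTATA on the other strand).
CYP1A1 (chr15:74725479-74725778, minus strand): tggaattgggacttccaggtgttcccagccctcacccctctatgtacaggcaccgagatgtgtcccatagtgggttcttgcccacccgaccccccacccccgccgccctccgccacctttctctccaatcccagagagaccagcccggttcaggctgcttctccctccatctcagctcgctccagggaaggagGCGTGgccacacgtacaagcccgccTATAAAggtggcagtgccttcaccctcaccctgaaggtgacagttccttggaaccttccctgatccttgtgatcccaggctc
CYP1A2 (chr15:74748595-74748894, plus strand): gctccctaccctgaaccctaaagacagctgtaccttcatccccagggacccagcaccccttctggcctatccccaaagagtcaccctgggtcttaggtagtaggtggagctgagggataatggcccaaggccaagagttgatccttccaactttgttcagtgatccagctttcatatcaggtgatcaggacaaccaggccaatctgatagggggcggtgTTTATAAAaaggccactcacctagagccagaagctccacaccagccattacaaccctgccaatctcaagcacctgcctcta
CYP20A1 (chr2:203238768-203239067, plus strand): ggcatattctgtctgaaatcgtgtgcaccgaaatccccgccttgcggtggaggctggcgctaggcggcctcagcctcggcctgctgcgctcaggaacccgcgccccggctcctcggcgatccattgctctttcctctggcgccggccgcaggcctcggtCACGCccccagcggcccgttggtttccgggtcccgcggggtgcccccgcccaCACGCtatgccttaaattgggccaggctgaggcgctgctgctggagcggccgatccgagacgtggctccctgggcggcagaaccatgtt
CYP1A1 held 1 AHR core, 57 bases before the start, and 1 TATA box, 32 bases before it. CYP1A2 held no AHR core in this window and TATAAA on both strands, in an overlapping pair. The window of CYP20A1 held 2 AHR cores on the opposite strand and no TATA box. Of all 35116 promoter windows in the table, 36.5% held the AHR core and 11.5% the TATA box. These shares are per window, whereas the members are counted per gene, with a match in any of its windows. Promoters were present for 39 of the 56 members, 12 of them with the AHR core, and for 12 of the 16 detected members, 5 of them with the core. POR, CYP1B1 and CYP4F12 were among those with no entry. The 5 detected members with the core were CYP1A1, CYP20A1, CYP2J2, CYP2U1 and CYP4V2. Their log2 fold changes with RAC3 were 0.58, 0.50, 0.18, -0.08 and -0.17, and the groups of CYP2J2, CYP2U1 and CYP4V2 overlapped. The detected members with a window but no core ran from -0.23 for CYP27A1 to 0.16 for CYP4F3. Of these, only CYP26B1 and CYP27A1 had groups that did not overlap. A link between the core and these changes was not tested. These matches describe the letters of the windows, and binding was not measured.

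Levels of different genes were compared per length, with the authors' FPKM, whose gene lengths are not given in the sources used here. POR was the highest member, at 61.3, 66.5 and 63.9 FPKM in the controls and 60.9, 62.6 and 66.7 in the RAC3 samples. CYP26B1, which clears retinoic acid, was the highest P450 gene of the controls at 22.7 ± 1.16 FPKM (SD, n = 3), followed by CYP1A1 at 18.8 ± 1.37. These neighbours did not overlap. CYP27A1, the mitochondrial sterol hydroxylase of bile acid synthesis (9.75 ± 0.476 FPKM), and CYP2S1, an extrahepatic enzyme of family 2 (8.09 ± 1.79), came next and overlapped each other. CYP20A1 (4.57 ± 0.433), CYP2B6 (4.18 ± 0.269) and CYP2R1 (3.43 ± 0.567) followed, each overlapping with its neighbour in this trio. The remaining 8 detected P450 genes had control means between 2.21 FPKM for CYP4F3 and 0.304 FPKM for CYP2U1, and of these CYP4F3 stood above CYP2J2, and CYP2C18 above CYP4V2, without overlap.

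In the RAC3 samples CYP1A1 stood above CYP26B1, with 28.5 ± 2.48 against 20.1 ± 2.99 FPKM, and the samples of the pair did not overlap in either group. The ratio of CYP1A1 to CYP26B1 was 0.928, 0.842 and 0.726 in the controls and 1.63, 1.15 and 1.54 with RAC3. By FPKM, each control thus had more CYP26B1 and each RAC3 sample more CYP1A1. CYP26B1 had nearly the same CPM in controls 1 and 3 (72.9 and 72.6) but 21.7 and 24.0 FPKM. The lengths behind the FPKM may therefore differ between samples, which limits this comparison. CYP4F12 moved from just under CYP2J2 to just above CYP4F3, but there it overlapped with its neighbour.

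**Figure D1:**
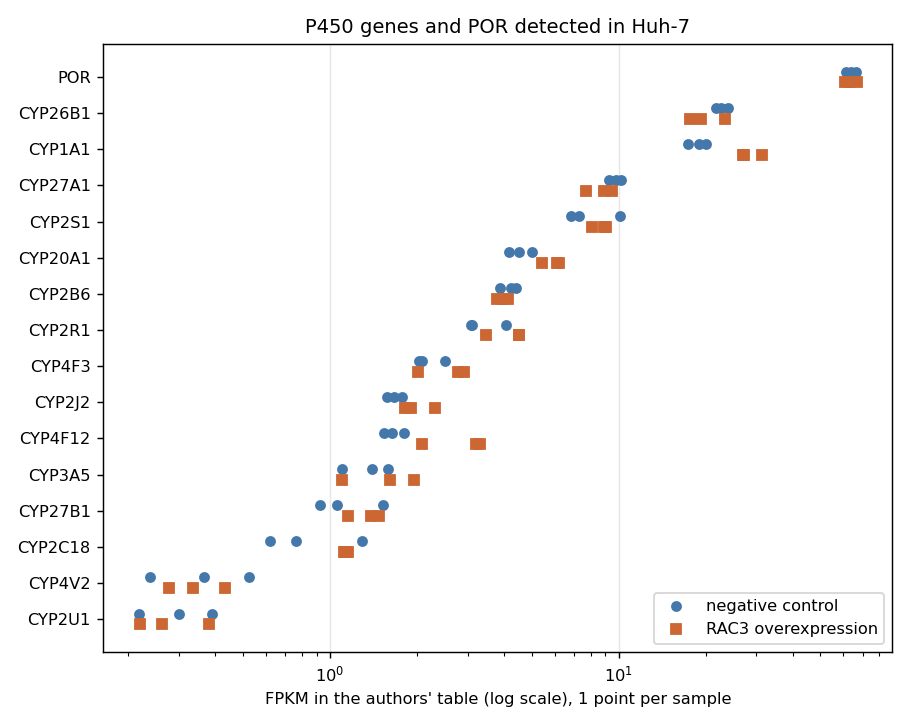
FPKM of the 16 detected members on a log axis, 1 point per sample, with negative controls as circles and RAC3 overexpression as squares. POR lies at 60.9 to 66.7 FPKM in all 6 samples, and CYP1A1 is the member near the top whose squares lie apart to the right of its circles.

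The summed FPKM of the 55 P450 genes was 86.6, 82.9 and 81.2 in the controls and 95.7, 95.4 and 92.8 in the RAC3 samples, so that the groups did not overlap. Without CYP1A1 the sums were 66.5, 63.9 and 63.8 against 64.4, 68.4 and 65.7, and the groups overlapped. CYP1A1 made up 22.5% ± 0.959 of the P450 sum in the controls and 30.1% ± 2.35 with RAC3 (SD, n = 3). CYP1A1, CYP26B1, CYP27A1, CYP2S1 and CYP20A1 together held 73.8% to 77.9% of the sum in every sample. The summed P450 level per unit of POR was 1.31 ± 0.0904 and 1.50 ± 0.0935, and its samples overlapped. All these values are sums over FPKM and are given without a test.

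**Figure D2:**
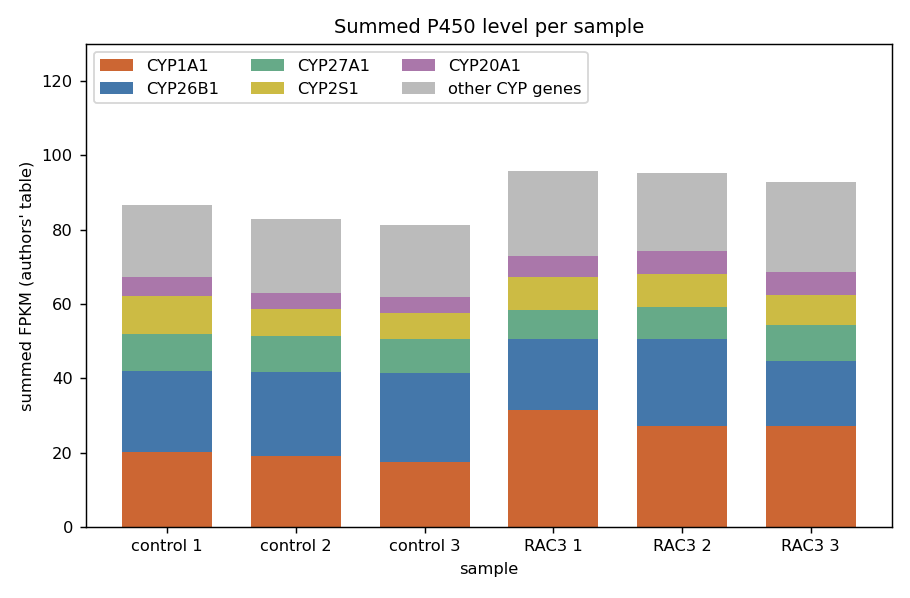
Summed FPKM of the 55 P450 genes in each sample, stacked by gene from 0. The CYP1A1 segment is taller in the 3 RAC3 samples (27.0 to 31.4 FPKM) than in the controls (17.4 to 20.1 FPKM), and the total lies between 81.2 and 95.7.

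The central question was which members differ between RAC3 overexpression and control. CYP1A1, CYP20A1 and CYP4F12 rose by 1.41-fold to 1.52-fold, and CYP1B1, close to absent in the controls, rose from about 0.257 to 1.10 CPM. None of the members fell by the main test, and the main drug enzymes of liver were mostly too low to be tested. In bulk RNA, fewer cells that express a gene and less RNA of it per cell cannot be told apart. With edgeR's quasi-likelihood test and Benjamini-Hochberg adjustment over the 12941 genes tested, 4 of the 17 members tested were higher at an adjusted p below 0.05 and 0 were lower. Of all genes tested, 13.3% were higher and 15.3% lower by this rule. At an unadjusted p below 0.05 there were 6 members, the 4 above and, lower, CYP26B1 and CYP27A1, against 39.2% of all genes. Among the other tools, the exact test of edgeR called 1 member lower, CYP26B1, and DESeq2 and limma-voom called 0. The share of all genes was not counted for these tools. With the thresholds of the study, a fold change above 1.5 and an unadjusted p below 0.05, 2 members were higher (CYP1B1 and CYP4F12) and 0 lower, against 1.68% and 2.99% of all genes. The groups did not overlap for 6 of the 17 members tested, and for 42.5% of all genes. The median log2 fold change was 0.13 over these 17 members, 0.12 over the 16 detected ones and 0.00 over all genes.

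The other 39 members were not tested because of low counts. CYP1B1 passed the count filter only through its RAC3 samples. With all samples at the level of its controls it would not have passed. Without CYP1B1, 3 of the 16 detected members were higher at an adjusted p below 0.05. By the thresholds of the study 1 of 16, CYP4F12, was higher. The groups did not overlap for 5 of these 16, and for 42.5% of all genes tested.

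**Figure D3:**
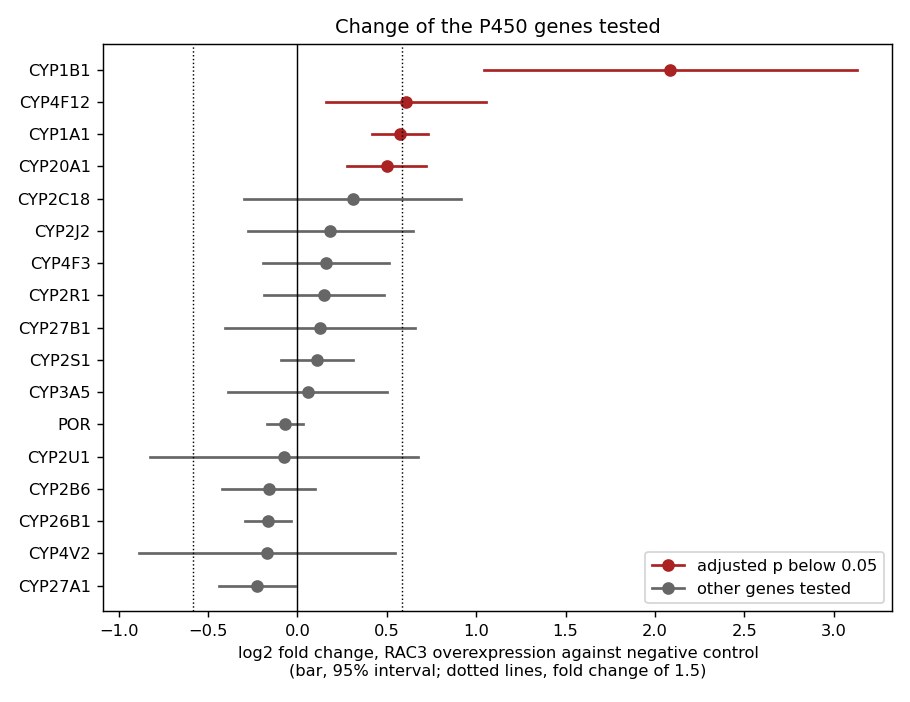
Log2 fold change of the 17 members tested, RAC3 overexpression against negative control, with 95% intervals, ordered by size. The 4 members in red have an adjusted p below 0.05, and dotted lines mark a fold change of 1.5. CYP1A1 at 0.58 lies just inside the dotted line, and the widest interval belongs to CYP1B1.

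CYP1A1 (ENSG00000140465, chromosome 15, 74719542 to 74725610, minus strand) oxidizes polycyclic aromatic hydrocarbons and is the classical gene induced through AHR. It was measured at 38.7, 33.1 and 34.2 CPM in the controls and at 56.3, 48.6 and 52.6 CPM with RAC3. All RAC3 samples were above all controls. The log2 fold change was 0.58 ± 0.0753 (SE), with a 95% interval of 0.42 to 0.73 and an adjusted p of 1.60e-05. This is a fold change of 1.49, just under the fold threshold of the study, and the gene passed that threshold when control 1 (0.64 on the log2 scale) or RAC3 sample 2 (0.63) was left out, and with library size scaling (0.63), with FPKM (0.59) or with the GC trend removed (0.65). Its counts, 497 to 614 in the controls and 742 to 1001 with RAC3, were the highest of the called members.

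CYP20A1 (ENSG00000119004, chromosome 2, 203238940 to 203305611, plus strand) is an orphan P450 with no established substrate. It was measured at 14.8, 14.7 and 16.6 CPM in the controls and at 19.2, 24.8 and 21.3 CPM with RAC3. Again the groups did not overlap. The log2 fold change was 0.50 ± 0.106, with an adjusted p of 0.00159 and a fold change of 1.41. With limma on the authors' FPKM, an alternative chosen after the data were seen, its change was 0.37 and its adjusted p 0.0599.

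CYP1B1 (ENSG00000138061, chromosome 2, 38066973 to 38109902, minus strand) hydroxylates estradiol and aromatic hydrocarbons and is another AHR target. It had 5, 2 and 5 counts in the controls and 24, 17 and 13 with RAC3, that is 0.257 ± 0.114 and 1.10 ± 0.223 CPM. The groups did not overlap, although 1 RAC3 sample, at 0.922 CPM, stayed below the level called detected. The log2 fold change was 2.08 ± 0.499, with an adjusted p of 0.00401 and an interval of 1.04 to 3.13. The gene passed the count filter only through its RAC3 samples, so this p-value is no independent support for the change. RMDN2 overlaps CYP1B1 on the other strand, and the strand setting of the counting is not given in the sources used here, so reads of the genes cannot be told apart where they overlap. RMDN2 itself was at 1.11 ± 0.195 and 1.73 ± 0.265 CPM (log2 fold change 0.61, adjusted p 0.178).

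CYP4F12 (ENSG00000186204, chromosome 19, 15672757 to 15697174, plus strand) hydroxylates fatty acids, eicosanoids and some antihistamines. It was measured at 3.08, 3.06 and 3.01 CPM in the controls and at 3.66, 4.98 and 5.39 CPM with RAC3. The controls lay close together and the RAC3 samples spread widely above them. The log2 fold change was 0.61 ± 0.215 and the adjusted p was 0.0402. This call was the weakest of the 4. It was lost when any library other than RAC3 sample 1 was left out, with an adjusted p of 0.0745, 0.0880 and 0.0916 without controls 1, 2 and 3, and of 0.109 and 0.148 without RAC3 samples 2 and 3. It was also lost with DESeq2 (adjusted p 0.0967), with limma-voom (0.0548), with the replicate block (0.0516) and after removal of the trend with GC content (0.0516). The size of the change was kept, with log2 fold changes of 0.61 with DESeq2, 0.57 with limma-voom, 0.61 with the block and 0.60 without the GC trend, and of 0.50 to 0.76 when a sample was left out.

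**Figure D4:**
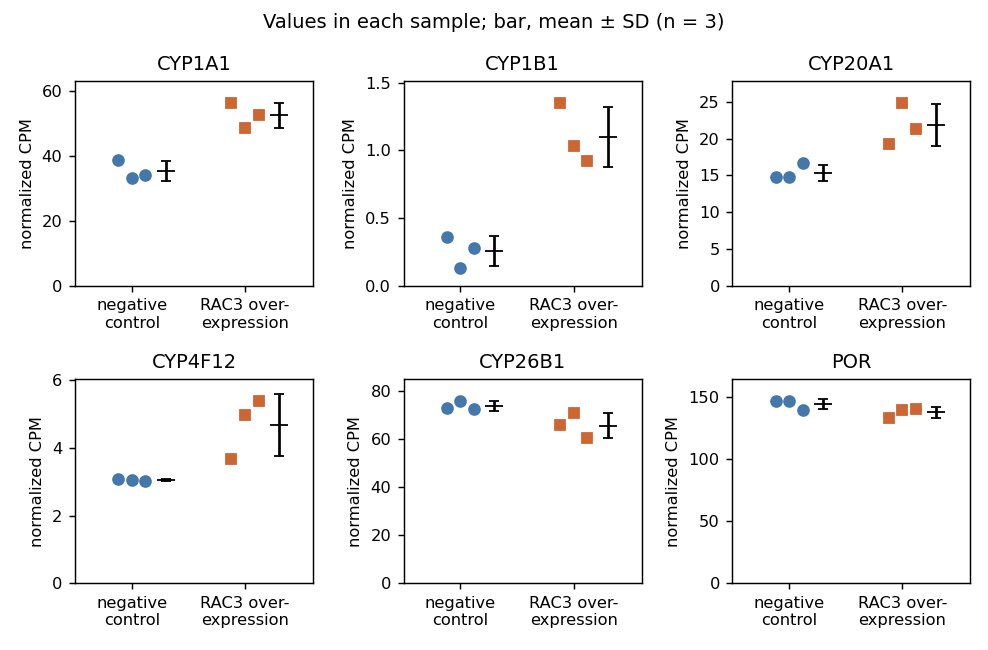
Normalized CPM of 6 members in each sample, with the mean and SD of each group (n = 3) beside the points and axes from 0. The RAC3 points lie above the controls for CYP1A1, CYP1B1, CYP20A1 and CYP4F12, below them for CYP26B1, and overlap with them for POR.

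CYP26B1, which oxidizes retinoic acid, was measured at 72.9, 76.1 and 72.6 CPM in the controls and at 65.9, 70.8 and 60.6 CPM with RAC3, with all RAC3 values below the controls. Its log2 fold change was -0.17 ± 0.0623 and its adjusted p 0.0527. It was called lower in 4 of 17 alternatives, with an adjusted p of 0.0429 without a count filter, 0.0430 with 10 counts in every sample, 0.0442 by edgeR's exact test and 0.0197 without RAC3 sample 2 (log2 fold change -0.22). Removing the trend with GC content gave -0.04. The other retinoid genes, CYP26A1, CYP26C1 and CYP27C1, had at most 10 counts in any sample. CYP26A1, for instance, had 0, 5 and 10 counts in the controls and 6, 7 and 3 with RAC3.

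CYP27A1 was the only detected gene of the bile acid and cholesterol side-chain group. It was at 19.7, 18.9 and 17.8 CPM in the controls and at 14.3, 16.3 and 17.7 CPM with RAC3, and the highest RAC3 sample came close to the lowest control. The log2 fold change of -0.23 ± 0.102 did not pass the test (adjusted p 0.102), and it was -0.07 after removal of the GC trend. CYP7A1, the rate-limiting enzyme of bile acid synthesis from cholesterol, had 0 counts in all 6 samples. CYP8B1, which makes the cholic acid branch, had 0 counts in the controls and 1, 1 and 0 with RAC3. CYP7B1, the oxysterol hydroxylase of the acidic pathway, had 2, 0 and 0 counts against 0, 2 and 1. CYP39A1 had between 1 and 15 counts and CYP46A1 between 0 and 4.

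POR (ENSG00000127948, chromosome 7, 75899200 to 75986855, plus strand) was at 147, 147 and 140 CPM in the controls and at 133, 140 and 141 CPM with RAC3. The groups overlapped. The log2 fold change was -0.07 ± 0.0481 (adjusted p 0.283), with an interval of -0.17 to 0.03, so that an increase of over 0.03 or a decrease beyond 0.17 on the log2 scale lay outside it. The sign turned to 0.10 (adjusted p 0.0841) when the GC trend was removed. TMEM120A, which overlaps POR on the other strand, was at 19.5 ± 2.33 and 14.4 ± 0.881 CPM (log2 fold change -0.43, adjusted p 0.00525), well below POR.

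Of the drug enzymes, CYP2B6, which metabolizes efavirenz and bupropion, was at 11.7, 11.5 and 10.4 CPM in the controls and at 9.68, 9.35 and 11.1 CPM with RAC3. Its groups overlapped, and the log2 fold change was -0.16 ± 0.124 (adjusted p 0.361). CYP3A5 was the only readily counted CYP3A gene, at 3.08, 3.80 and 3.79 against 3.77, 4.07 and 3.26 CPM. It showed a log2 fold change of 0.06 ± 0.212 (adjusted p 0.872), an interval of -0.39 to 0.50, and a change of sign in 3 of the alternatives. CYP2S1 had 20.3, 17.0 and 18.1 CPM in the controls and 18.7, 21.1 and 19.9 with RAC3, in overlapping groups. Its log2 fold change was 0.11 ± 0.0968 (adjusted p 0.434), and 0.28 with an adjusted p of 0.0289 after removal of the GC trend.

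CYP2R1, which adds the first hydroxyl group to vitamin D in liver, was at 6.30, 7.86 and 5.91 CPM in the controls and at 7.88, 6.56 and 7.73 CPM with RAC3 (log2 fold change 0.15 ± 0.160, adjusted p 0.534). CYP4F3, the leukotriene B4 hydroxylase, was at 6.45, 5.66 and 6.64 against 6.92, 5.77 and 8.37 CPM (0.16 ± 0.169, adjusted p 0.516). Both genes overlapped between the groups. CYP2C18, CYP2J2, CYP2U1, CYP4V2 and CYP27B1 were lower still, at 1.03 to 4.26 CPM, and their log2 fold changes ran from -0.17 for CYP4V2 to 0.31 for CYP2C18 in overlapping groups. The interval of CYP2C18 reached from -0.30 to 0.92, so these counts leave room for changes of the size seen in CYP1A1. CYP2C18 also shares 35.9% of its transcript, in stretches of 100 bases, with a readthrough gene that is not in the table.

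The enzymes that carry most drug metabolism in liver were at or near 0. CYP3A4 had 2, 0 and 1 counts in the controls and 1 in each RAC3 sample. CYP2C8 had 0, 1 and 2 against 3, 0 and 2, and CYP2C19 had 2 counts in 1 RAC3 sample alone. CYP2E1, the ethanol-inducible enzyme, had 0, 4 and 6 against 2, 5 and 4 counts. In each of these genes the groups overlapped within a few counts.

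CYP2D6 had 9, 9 and 1 counts in the controls and 8, 1 and 4 with RAC3, and 15.5% of its transcript is shared with the pseudogenes of its array. CYP3A7, the fetal form, had 0 counts in every control and 6, 2 and 0 with RAC3. It shares 53.3% of its transcript with other CYP3A genes, mainly the readthrough CYP3A7-CYP3A51P, which had 1, 0 and 0 against 0, 0 and 4 counts. CYP2A7 ran the other way, with 3, 1 and 4 counts in the controls and 0 in every RAC3 sample. Without the filter on counts, CYP3A7 and CYP2A7 passed the thresholds of the study, 1 in each direction, and no fold change is given at this depth.

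CYP1A2, CYP2A13, CYP2F1, CYP4A11, CYP4A22, CYP4B1, CYP4X1, CYP4Z1, CYP7A1, CYP11B1 and CYP11B2 had 0 counts in all 6 samples, which allows up to 0.167 to 0.215 CPM, depending on the library. Of the 29 members with traces, 16 had 10 or fewer counts over all samples together. The highest count of an untested member was 15, for CYP39A1 in control 1. Among the steroid hormone genes, CYP11A1, which cleaves the cholesterol side chain, had 9, 7 and 6 counts against 8, 10 and 9. CYP19A1, the aromatase, ranged from 0 to 10 counts, both extremes in RAC3 samples. For CYP11A1 and CYP19A1 no test was made, and small changes were not detectable at this depth.

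**Figure D5:**
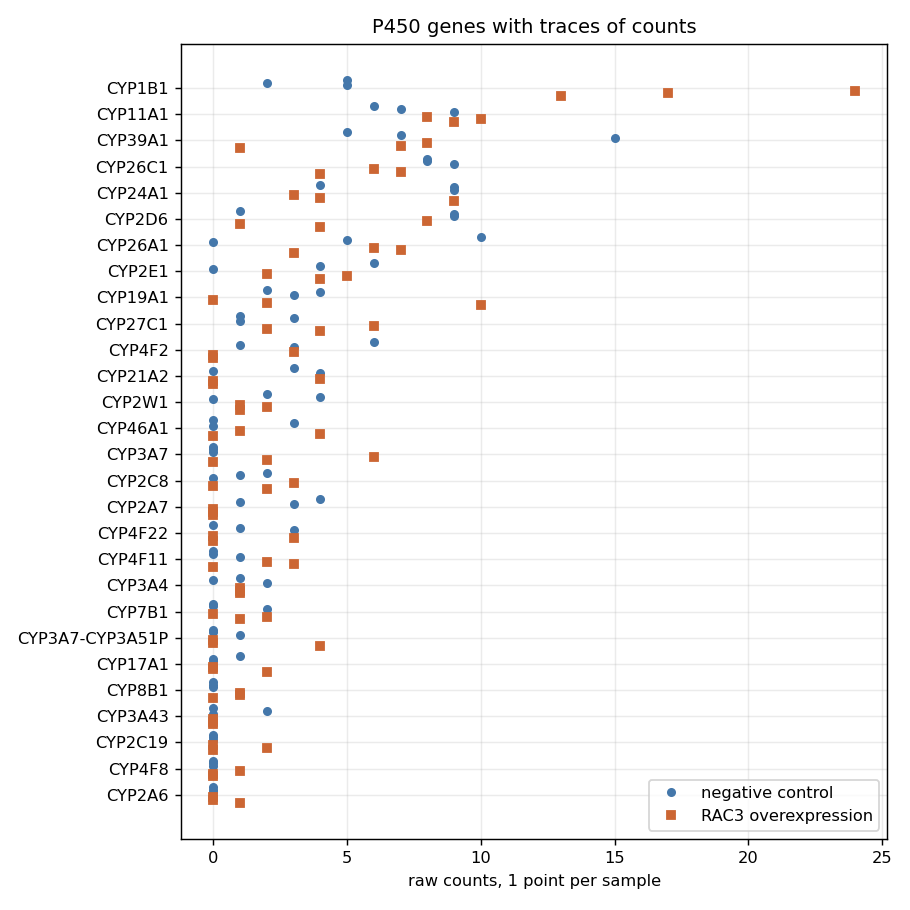
Raw counts of 28 of the 29 members with traces of counts, 1 point per sample, ordered by their total. CYP1B1 at the top is the gene whose RAC3 samples (13 to 24 counts) lie well to the right of the controls (2 to 5 counts), and no other member plotted exceeds 15 counts.

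P450 enzymes depend on electron donors, on haem and on the nuclear receptors and liver factors that control their genes, and these lists were counted in the same fit. Genes outside the members were read from this fit alone, without the GC correction or the other alternatives. Of 9 electron donors and partners other than POR, 1 was higher and 1 lower at an adjusted p below 0.05, about the share over all genes (13.3% and 15.3%). PGRMC1, a haem-binding partner of P450 enzymes, rose by 0.13 on the log2 scale (edgeR adjusted p 0.0417), and CYB5R3, the reductase of cytochrome b5, fell by 0.27 (adjusted p 7.31e-05). Of 10 haem genes, 0 rose and 3 fell by the same test, where 13.3% and 15.3% of all genes did. Among them were PPOX (log2 fold change -0.59) and CPOX (-0.32), both enzymes of haem synthesis, of which PPOX had overlapping groups.

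Of 25 regulators of P450 genes, 23 were tested, of which 4 rose and 9 fell, beside 13.3% and 15.3% of all genes tested. AHR was at 150, 156 and 171 CPM in the controls and at 211, 210 and 217 CPM with RAC3, a log2 fold change of 0.42 ± 0.0500 (edgeR adjusted p 6.26e-06) in groups that did not overlap. TIPARP, a target and repressor of AHR, rose by 0.41 (adjusted p 0.000581), from 30.1 ± 0.883 to 40.0 ± 3.38 CPM. CEBPD (0.72) and ONECUT1 (0.22) were the other increases. ARNT, the partner of AHR, had a log2 fold change of -0.04 (adjusted p 0.704), and AHRR, the AHR repressor, one of 0.33 (adjusted p 0.518), both in overlapping groups.

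The regulators that fell by most were NR0B2 (log2 fold change -0.52), CEBPA (-0.48), FGFR4 (-0.41), RXRA (-0.40) and FOXA3 (-0.32). CEBPA and FOXA3 are liver transcription factors, RXRA is the shared partner of many nuclear receptors, and NR0B2 and FGFR4 act in the feedback on CYP7A1. HNF4A, which drives many hepatic P450 genes, was at 210 ± 15.9 and 214 ± 7.27 CPM, and its log2 fold change was 0.03 (adjusted p 0.752). NR1I2, the pregnane X receptor that induces CYP3A4, had 1 count in all, and NR1I3, which induces CYP2B6, had 15. The part of these factors in the P450 levels was not tested.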

How the data were processed

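Stable RAC3-overexpressing and negative control Huh-7 cells (3 samples each) were sequenced on a NovaSeq after oligo(dT) selection. The raw counts per gene and the FPKM values were deposited by the authors, and the notes name Bowtie2 2.2.8, HISAT2, StringTie 1.3.1 and DESeq2 without their roles. Genome build, annotation and strand setting are not given in the sources used here. The authors' group means of FPKM were not used.

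The counts were tested with edgeR 4.0.16 under R 4.3.3 (filterByExpr, TMM, quasi-likelihood F test, two-sided, Benjamini-Hochberg adjustment over 12941 genes, no covariate). Samples were grouped by title. Of the steps, only the edgeR quasi-likelihood test was tried on simulated counts. The members and gene lists were chosen with earlier results of these data known. Per-sample values were given for POR, called members, the 10 highest detected members per length and a set of drug and bile acid genes, and for the other lists up to 5 genes per direction with the largest change. Shared transcript sequence was computed from GENCODE 29. Alternatives used DESeq2 1.42.0, limma 3.58.1 (log2 of FPKM + 0.1), other scalings, filters and thresholds, a GC correction, a replicate block and leaving out each sample. They were read for the P450 members and POR only. The limit that a count of 0 allows covers counting error only. Total counts of 13855762 to 18199888 set the depth. Values of some genes are not reported here.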

Additional observations from a re-analysis of the deposited data

How the results depend on the processing

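CYP1A1 stayed higher in all 17 alternatives, with log2 fold changes of 0.52 to 0.65, and CYP1B1 in the 16 that kept it (1.27 to 2.35). Most of these 16 used a count filter that CYP1B1 passed only through its RAC3 samples. CYP20A1 lost its call with limma on the FPKM values, and CYP4F12 in 9 of 17. Requiring an adjusted p and a fold above 1.5 left 2 called members, and a fold above 2 with the rule of the study left 1. Without a count filter 1 member (CYP26B1) was lower at an adjusted p below 0.05, and 4 members passed the study's thresholds, 1 of them lower. With 10 counts in every sample, which leaves CYP1B1 out, CYP26B1 was the 1 member lower, and the study's thresholds gave 1 member in all and 1 higher. DESeq2 called 2 members, 2 of them higher, and gave CYP1B1 no adjusted p. The exact test called 1 lower (CYP26B1), and limma-voom gave 1 by the study's thresholds, 1 higher. The median log2 fold change over the members tested was 0.20 with FPKM. Leaving out 1 sample gave 3 to 4 higher and 0 to 1 lower members at an adjusted p below 0.05. By the study's thresholds it gave 1 to 3 members, all of them higher. The fewest came without RAC3 sample 3, where CYP4F12 dropped out. After removal of the GC trend, CYP3A5 turned to -0.037 and POR to 0.10, and CYP3A5 ranged from -0.035 to 0.13 when samples were left out. The share of all genes called was counted for the main fit only. The counts of members under the alternatives, with the replicate block among them, therefore have no share beside them. Whether they moved with the P450 genes or with all genes cannot be read from them. The causes of these changes were not tested.

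The replicate numbers did not pair the samples: same-numbered samples had correlations of -0.09, -0.05 and -0.02 over 11221 genes. With the replicate block, 3 members were called at an adjusted p below 0.05 and 2 by the study's thresholds, and the median was 0.13. Between 14 and 17 members were detected with 0.5 CPM, 1 FPKM or 10 counts as the limit.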

Other observations

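Other enzymes of oxidative and hydrolytic drug metabolism were also measured. Of 24 such genes, 19 were tested, of which 5 rose and 4 fell by edgeR's quasi-likelihood test at an adjusted p below 0.05, beside 13.3% and 15.3% of all genes tested. The increases were in AKR1C2 (log2 fold change 0.25), AKR1C1 (0.24) and ALDH1A1 (0.24), which reduce or oxidize carbonyl compounds, and in ALDH3A2 (0.20) and the microsomal epoxide hydrolase EPHX1 (0.15). The decreases were in the soluble epoxide hydrolase EPHX2 (-0.34), the carboxylesterase CES2 (-0.28), the monoamine oxidase MAOA (-0.22) and NQO1 (-0.21), a quinone reductase that is also an AHR target.

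The P450 genes that the symbol rule leaves out were read in the same fit. CYP51A1, the sterol demethylase of cholesterol synthesis, was at 133 ± 6.70 and 116 ± 1.77 CPM and fell by 0.20 on the log2 scale (adjusted p 0.00600). PTGIS, the prostacyclin synthase, had a log2 fold change of -0.60 (adjusted p 0.240), and TBXAS1, the thromboxane synthase, had at most 3 counts in a sample.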
